A study of Mus musculus with 6 samples.

Results

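The activin, inhibin and follistatin system was described in mouse pituitary through 10 genes: Inha, Inhba and Inhbb (ligand subunits), Fst (binding protein), Acvr1b, Acvr2a, Acvr2b and Tgfbr3 (receptors and co-receptor), Smad3 (signal transducer) and Bambi (pseudoreceptor). Its members were the non-control probes annotated with a RefSeq accession of one of these genes, 12 of the 55681 probes on the array. Acvr2a and Smad3 had 2 probes each and the other genes 1. Of the 10 genes, 8 had a probe that passed the filter on dim probes and entered the fit, among 26887 genes and unnamed features tested. Fst and Bambi did not pass it.

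Whole pituitaries came from 3 females null for Jmjd2a (KO, Jmjd2a-/-) and 3 wild-type littermates (WT, Jmjd2a+/+), and each animal had its own one-colour Agilent array. All 6 were virgin C57BL6 mice aged 8 weeks, taken 24 h after their oestrous cycle was activated with soiled bedding from a stud male, known as the Whitten effect. The gene's current symbol is Kdm4a, and its product is a demethylase of histone H3 lysines. The labels do not give the cells in which the gene was deleted, nor which part of it.

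Activins are dimers of beta subunits, encoded by Inhba and Inhbb. They are made within the pituitary as well as in the gonads, and they stimulate gonadotropes to transcribe the beta subunit of follicle-stimulating hormone. Inhibins join 1 of those beta subunits to the alpha subunit encoded by Inha and oppose activin by occupying its type II receptors together with the co-receptor betaglycan (Tgfbr3), while follistatin binds activin and keeps it from its receptors. Bound activin brings together a type II receptor (Acvr2a or Acvr2b) and the type I receptor ALK4 (Acvr1b), which phosphorylates Smad2 and Smad3.

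The upstream sequence of the 3 subunit genes is shown because of the comparison below, in which none of them was called. The KO values of Inha all lay below its WT values, as for 13.5% of all genes and features. The groups overlapped for both beta subunit genes. Each sequence is the 250 bases before the start that RefSeq lists (GRCm38.p6), read 5′ to 3′ on the gene's strand. Capitals mark matches to any of 4 motifs, each searched on both strands. A Smad-binding element was searched as CAGAC, and a TATA box as TATAAA. The cAMP response element was searched as TGACGTCA, and a shorter variant of it as TGCGTCA.
Inha, chr1:75507359-75507608, + strand: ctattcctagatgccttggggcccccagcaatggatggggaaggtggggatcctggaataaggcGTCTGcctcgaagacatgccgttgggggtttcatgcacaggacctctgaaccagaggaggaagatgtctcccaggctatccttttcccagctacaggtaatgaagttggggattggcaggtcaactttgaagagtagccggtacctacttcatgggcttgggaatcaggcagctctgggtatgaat
Inhba, chr13:16011601-16011850, + strand: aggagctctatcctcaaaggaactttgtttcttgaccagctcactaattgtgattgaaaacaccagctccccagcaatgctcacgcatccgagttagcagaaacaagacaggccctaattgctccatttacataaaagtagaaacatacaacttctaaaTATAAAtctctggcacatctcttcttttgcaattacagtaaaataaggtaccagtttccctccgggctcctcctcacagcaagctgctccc
Inhbb, chr1:119422249-119422498, - strand: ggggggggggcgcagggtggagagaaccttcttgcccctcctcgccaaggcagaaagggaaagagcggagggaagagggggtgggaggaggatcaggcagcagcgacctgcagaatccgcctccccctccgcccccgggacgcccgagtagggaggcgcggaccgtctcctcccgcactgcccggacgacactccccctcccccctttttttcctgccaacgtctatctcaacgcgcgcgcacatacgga

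The Inha window held CAGAC once, on the reverse strand and 186 bases before the start, and 42.2% of the 32851 promoter windows of this length held that motif. The windows of Acvr2a and Acvr2b, whose KO and WT arrays overlapped, also held it once on the reverse strand, 188 and 233 bases before the start. Those of Acvr1b and Smad3 did not hold it. The Inhba window held TATAAA once, 91 bases before the start, a motif present in 12.4% of windows. The cAMP response element (1.55% of windows) and its variant (1.75%) had no match in any of the 3 windows, and the Inhbb window matched none of the 4 motifs. The bases were 53.6% G or C for Inha, 43.2% for Inhba and 68% for Inhbb. The RefSeq table used here holds 1 start for each of these genes, which need not be the start used in pituitary.

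The arrays shared 1 slide and 1 scan. Between 34634 and 37586 probes lay well above background on the KO arrays and between 34751 and 40567 on the WT arrays, and no spot was saturated. Values are log2 signals relative to the 75th percentile of the array's spots, fold changes are KO over WT with the standard error from limma, and n = 3 arrays a group, which limits the precision of every value. In the limma fit, 0 of 26887 genes and features (0%) had a Benjamini-Hochberg adjusted p under 0.05, and 3445 had an unadjusted p under 0.05. Other settings of the processing, the filter, the model or the arrays used called between 0 and 27 at the same threshold (limma). The median log2 fold change over all 26887 genes and features was -0.08. The targeted gene, Kdm4a, read 1.45, 1.20 and 1.36 on the KO arrays, against 2.14, 1.90 and 1.85 on the WT arrays. Its log2 fold change was -0.62 ± 0.14 (adjusted p = 0.237 by limma), and its groups did not overlap.

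Among the ligand subunits, Inha stood lower on every KO array, while Inhba and Inhbb differed by less than their replicate error. Inha read -1.78, -1.61 and -1.70 on the KO arrays, against -1.49, -1.21 and -0.74 on the WT arrays. All KO values lay below all WT values, the KO arrays spanned 0.18 and the WT arrays 0.75, and the highest value came from WT replicate 3. The group means were -1.70 ± 0.09 in KO and -1.14 ± 0.38 in WT (SD, n = 3 each). The log2 fold change of Inha was -0.55 ± 0.20, so that the KO signal was 68.3% of the WT signal (95% interval 49.1% to 94.9%). Its p was 0.0290 before and 0.357 after adjustment over all genes tested (limma), so it was not called. An exact permutation of the group labels (two-sided) returned p = 0.1, which no 3 against 3 design can go below.

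The place of Inha among all genes was not extreme. A smaller p was found for 8.14% of the genes and features tested. An unadjusted p under 0.05 with a lower value in KO was found for 8.92% of them, and KO values all below the WT values for 13.5%, against 1 of the 8 members tested (12.5%) for each. The members' share was near the background in both counts.

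Inha was lower in KO under all 20 alternatives run, with log2 fold changes from -0.72 (without WT replicate 1) to -0.30 (the authors' value table). Those that changed only the filter, the choice of probe, the variance model or the blocks left its fold change at -0.55. As all KO values lay below all WT values, leaving out an array or taking 1 slide row alone could not turn its sign. Inha had an unadjusted p under 0.05 in 12 of the 19 alternatives that gave a test, and the adjusted p ran from 0.242 to 0.687. Without WT replicate 3, the array with the highest value, the log2 fold change was -0.35 ± 0.15, a move of more than 1.5 times. The arrays sat in 2 rows of the slide that both held KO and WT, and Inha read -0.63 in row 1 alone and -0.40 in row 2 alone, which held 1 array a group. On WT replicate 3, 3 marker lists stood apart from their levels on the other arrays. Markers of dividing cells (4 of 4 tested) averaged -2.90 to -2.13 on the KO arrays and 0.91 on WT replicate 3, against -1.57 and -0.71 on WT replicates 1 and 2. Of these 4 markers, 3 lay lower on every KO array than on any WT array, as did 13.5% of all genes and features. Neutrophil markers (6 of 6 tested) averaged -3.35 to -2.81 on the KO arrays and 0.05 on WT replicate 3, against -2.72 and -2.59 on the other WT arrays. Schwann cell markers (5 of 5 tested) averaged -0.59 to -0.55 on the KO arrays and 0.77 on WT replicate 3, against -0.93 and -0.28 on the other WT arrays. Among 15 marker lists, others had means that were lower on every KO array without WT replicate 3 standing apart. Somatotrope markers (3 of 3 tested) averaged 4.58 to 4.65 in KO, against 4.78 to 4.88 in WT. Corticotrope markers (4 of 4) averaged 1.88 to 1.98 in KO, against 2.12 to 2.49 in WT, and posterior lobe markers (5 of 5) -0.77 to -0.66 in KO, against -0.53 to -0.41 in WT. Pericyte and fibroblast markers (6 of 6) averaged 0.998 to 1.34 in KO, against 1.36 to 1.43 in WT. Genes within the posterior lobe and the pericyte and fibroblast lists went both ways. Of the posterior lobe markers, 2 had log2 fold changes above 0 (Rax 0.53, Oxt 0.03) and 3 below, the lowest being Avp (-1.21). Of the pericyte and fibroblast markers, 1 was above 0 (Rgs5 0.62) and 5 below, the lowest being Col1a1 (-0.83). The part of any of these lists in the Inha values was not tested. In RNA from whole glands, fewer cells of a type and less RNA per cell cannot be told apart.

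The gonadotrope markers, which mark the pituitary cells that make inhibin and respond to activin, overlapped. All 7 of the list were tested, 0 of them separated the groups (7.14% of all features had KO all higher and 13.5% all lower, so that 0 of 7 is near the background), and their mean ran from 3.99 to 4.28 on the KO arrays, against 3.99 to 4.41 on the WT arrays. Of the 7, 3 had log2 fold changes above 0 and 4 below, with a median of -0.16. The lowest was Foxl2, at -0.54 ± 0.32. The hormone genes that define gonadotropes were well above background on all 6 arrays. Cga, the shared glycoprotein hormone subunit, averaged 8.53 ± 0.08 in KO and 8.79 ± 0.39 in WT (SD, n = 3 each). Lhb, the beta subunit of luteinising hormone, averaged 4.23 ± 0.02 in KO and 4.20 ± 0.35 in WT, with a log2 fold change of 0.03 ± 0.19. Fshb, the beta subunit that activin is known to induce, read 4.40, 4.41 and 5.64 on the KO arrays, against 2.94, 6.43 and 3.85 on the WT arrays. Its WT arrays spanned the KO arrays on both sides, and the log2 fold change of 0.41 ± 0.86 (adjusted p = 0.841 by limma) left its direction unresolved. Inha did not follow the same order, being highest on WT replicate 3 while Fshb was highest on WT replicate 2.

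Inhba, the beta A subunit, read -2.06, -2.01 and -1.84 on the KO arrays, against -2.27, -1.90 and -1.90 on the WT arrays. The groups overlapped, with the lowest value on WT replicate 1. Its log2 fold change was 0.05 ± 0.15 (adjusted p = 0.888 by limma), and the 95% interval put the KO signal between 80.9% and 133% of WT. Inhbb, the beta B subunit, read 0.85, 0.97 and 1.28 on the KO arrays, against 0.71, 1.15 and 1.10 on the WT arrays. These also overlapped. Its log2 fold change was 0.05 ± 0.18 (adjusted p = 0.919 by limma), with an interval from 76.9% to 139% of WT. The data thus leave room for changes of either beta subunit within those intervals.

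**Figure D1:**
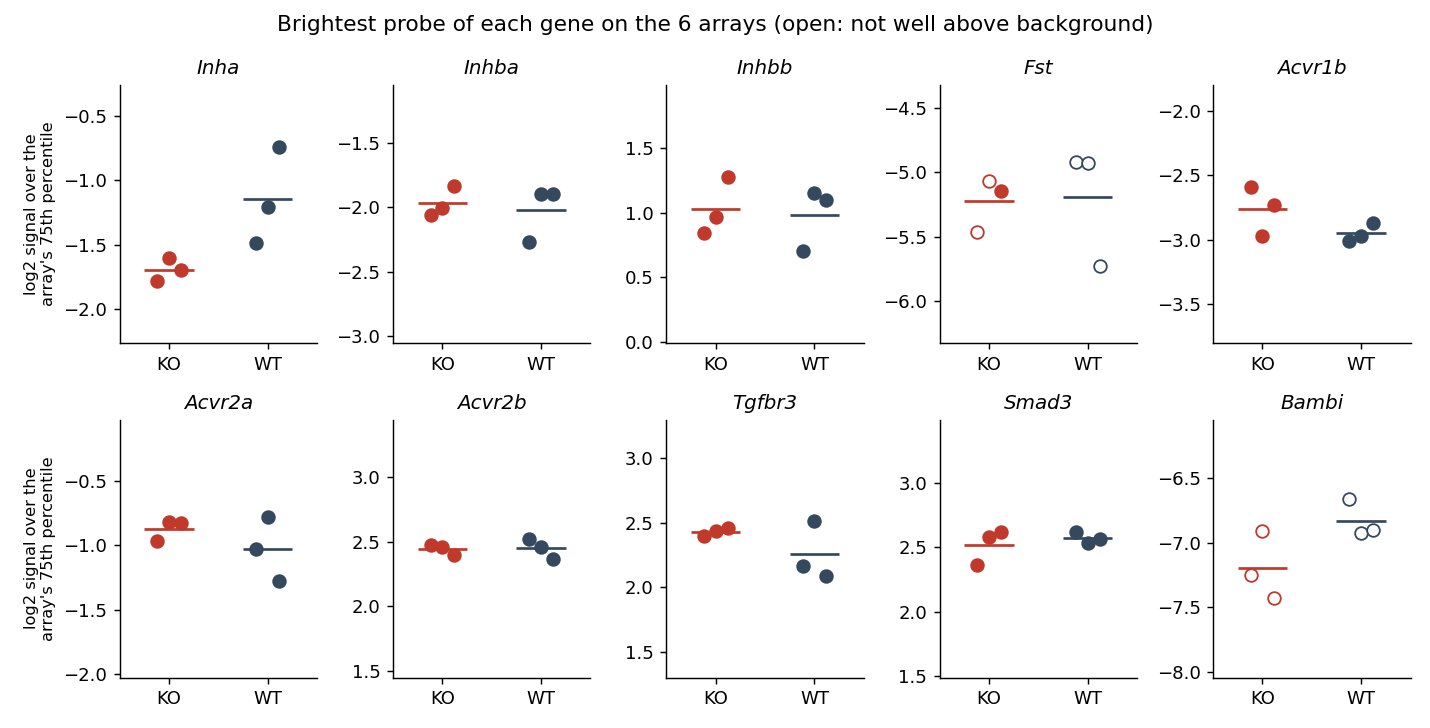
Log2 signal relative to the array's 75th percentile for the brightest probe of each of the 10 genes, with KO arrays on the left, WT arrays on the right and a line at each group's mean. Every panel spans the same height, filled points lie well above background, and Inha is the gene among the 8 tested whose 3 KO values all lie below its 3 WT values.

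The difference between a beta subunit probe and the Inha probe on the same array does not change if 1 value is subtracted throughout. The scaling used here is of that kind, while background correction and other scalings can change the difference. Inhbb minus Inha was 2.63, 2.58 and 2.97 on the KO arrays, against 2.19, 2.36 and 1.84 on the WT arrays (log2). Inhba minus Inha was -0.28, -0.40 and -0.14 on the KO arrays, against -0.78, -0.69 and -1.16 on the WT arrays. Neither difference overlapped between the groups, and both were higher in KO, by 0.60 in each case. They share the Inha probe, so they are a single observation of Inha rather than separate ones, and no test was made of them. Each probe has its own brightness, so the level of 1 subunit cannot be set against that of another, only its shift between KO and WT. With normexp background correction the shift was 0.43 for Inhbb and 0.30 for Inhba, while values deposited by the authors gave 0.32 for Inhbb and 0.33 for Inhba. Without WT replicate 3 the shifts were 0.45 and 0.46 in that order.

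**Figure D2:**
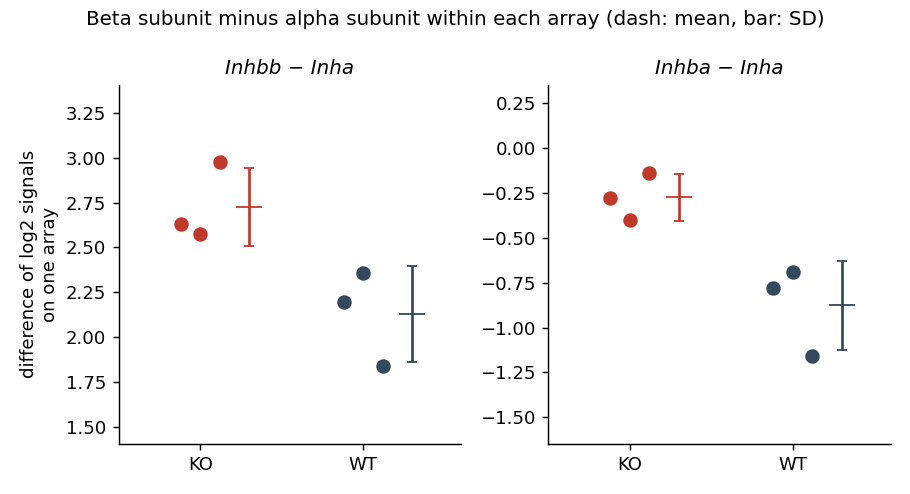
Difference in log2 signal between the Inhbb (left) or Inhba (right) probe and the Inha probe on each array, with KO before WT, points for arrays, a dash for the mean and a bar for the SD (n = 3 each). All 3 KO arrays lie above all 3 WT arrays in both panels, which share the Inha probe.

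Fst, which encodes follistatin, was close to the limit of detection. Its probe was well above background on 1 of the 3 KO arrays and on 0 of the 3 WT arrays. It read -5.46, -5.07 and -5.15 on the KO arrays, against -4.92, -4.92 and -5.72 on the WT arrays (exact permutation p = 1). The groups overlapped, the mean signals bounded no fold change, and these values say nothing of follistatin beyond its low signal on this probe. Bambi, a receptor-like protein without kinase activity that dampens signalling, was not well above background on any of the 6 arrays, and no direction is given for it.

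The receptors did not separate. Tgfbr3, the betaglycan co-receptor through which inhibin binds, read 2.40, 2.44 and 2.46 on the KO arrays, against 2.16, 2.51 and 2.08 on the WT arrays. WT replicate 2 lay above all KO arrays and the other WT arrays below them. For Tgfbr3 the log2 fold change was 0.18 ± 0.15 (adjusted p = 0.600 by limma), and the 95% interval ran from 88.8% to 144% of WT. It was 0.09 without WT replicate 3 and 0.31 without WT replicate 2. Acvr2b, a type II receptor, read between 2.40 and 2.47 on the KO arrays and between 2.37 and 2.52 on the WT arrays. It had the smallest fold change of the members tested, with a log2 value of -0.01 ± 0.11 and an interval from 82.8% to 120% of WT.

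Acvr2a, the other type II receptor, had a probe with values of -0.96, -0.82 and -0.83 on the KO arrays, against -1.03, -0.78 and -1.27 on the WT arrays. The WT arrays again reached to both sides of the KO arrays. The log2 fold change was 0.16 ± 0.16 (adjusted p = 0.659 by limma). It was 0.03 without WT replicate 3, 0.28 without WT replicate 2 and 0.03 with normexp. The dimmer probe gave 0.27 ± 0.20, and -0.11 with normexp. Acvr1b, the type I receptor that phosphorylates Smad2 and Smad3, read -2.59, -2.97 and -2.73 on the KO arrays, against -3.01, -2.97 and -2.87 on the WT arrays. KO replicate 2 lay among the WT arrays and the other KO arrays above them. The log2 fold change was 0.19 ± 0.14 (adjusted p = 0.568 by limma), and it read -0.03 with normexp, 0.10 without KO replicate 1 and 0.29 without KO replicate 2.

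The 2 probes of Smad3, the signal transducer, disagreed. The brighter one read 2.36, 2.58 and 2.62 on the KO arrays, against 2.62, 2.53 and 2.56 on the WT arrays. KO replicate 1 lay lowest and the groups overlapped. Its log2 fold change was -0.05 ± 0.12 (adjusted p = 0.869 by limma) and an interval from 78.8% to 118% of WT. The dimmer probe, well above background on 1 KO array and 2 WT arrays, read -5.77, -5.07 and -4.86 on the KO arrays, against -4.60, -4.52 and -4.62 on the WT arrays. All its KO values lay below its WT values. The fold change of this probe on the log2 scale was -0.65 ± 0.24 (adjusted p = 0.369 by limma over all probes), or -0.22 ± 0.16 with normexp. Its signal was 4.53 to 10.5 intensity units in KO and 7.05 to 13.6 in WT, against 1276 to 1871 and 1050 to 1809 for the brighter probe in that order of groups.

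**Figure D3:**
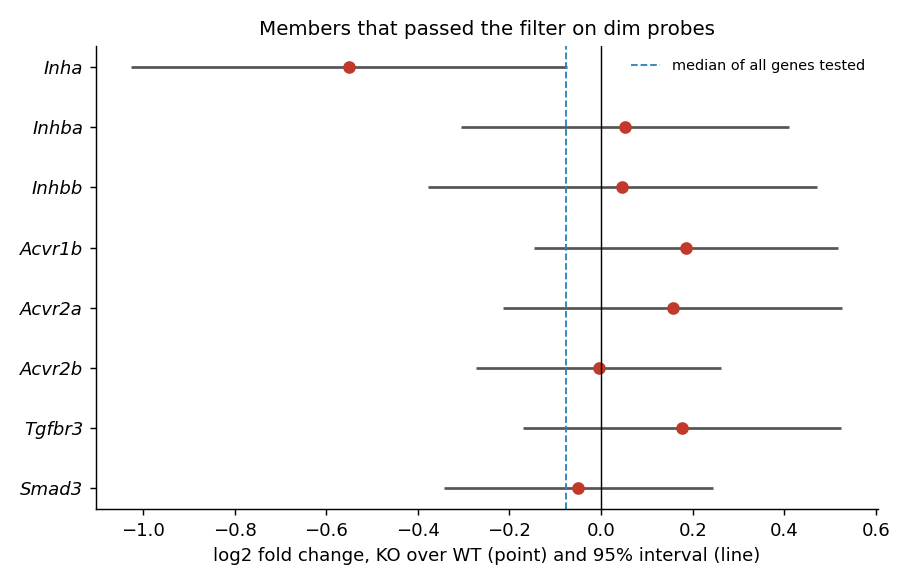
Log2 fold change, KO over WT, of the 8 members that passed the filter, with 95% intervals from limma, a line at 0 and a dashed line at the median of all genes tested (-0.08). The interval of Inha, from -1.03 to -0.08, lies below 0 before adjustment, and those of the other 7 members span it.

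Of the 8 members, 5 had a log2 fold change above 0 and 3 below, with a median of 0.05. Of all 26887 genes and features tested, 10491 lay above 0. Signs of values this small depended on the processing. Centring arrays on their medians put the median of all genes at 0.09, against -0.08 as scaled here. Acvr2b kept its sign in 12 of 20 alternatives, Inhba and Smad3 in 16, Inhbb in 17, Acvr1b in 18, and Acvr2a and Tgfbr3 in 19. These counts include settings that changed only the filter, the variance model or the blocks, which left each fold change as reported. The counts therefore overstate how stable the signs were. No member was called at an adjusted p under 0.05 in any alternative, of which some called other genes.

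**Figure D4:**
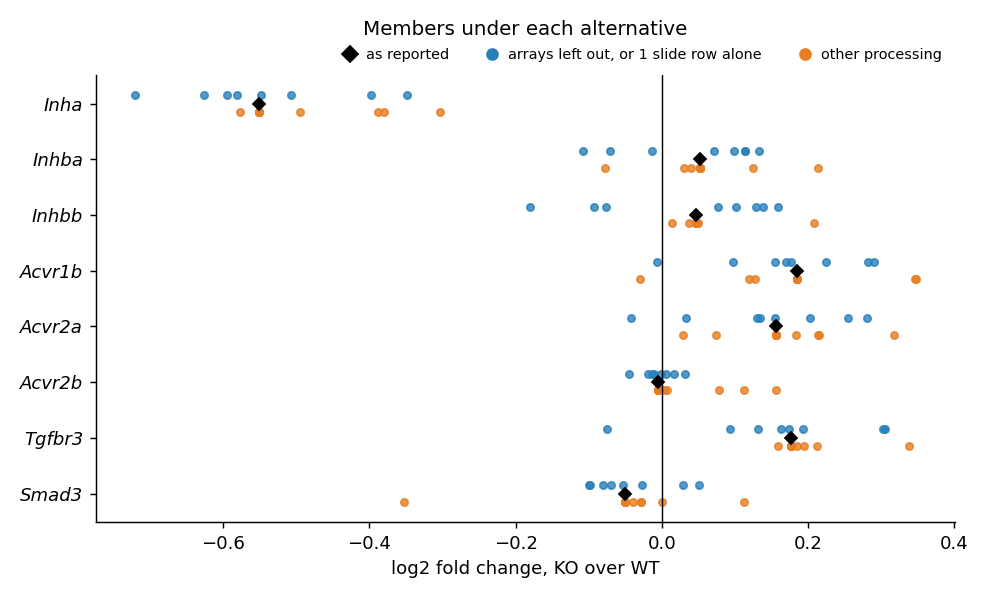
Log2 fold change, KO over WT, of the 8 members under each alternative, as reported (diamond), with arrays left out or 1 slide row alone (blue), and with other processing (orange). Inha lies between -0.72 and -0.30 throughout, and the points of the other members fall on both sides of 0.

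Of 85 other genes of the wider TGF-beta family pathway, 79 passed the filter, and none was called. At an unadjusted p under 0.05, 6 (7.59%) were higher in KO, against 3.89% of all genes and features, and 2 (2.53%) were lower, against 8.92%. KO values all above the WT values were found for 8 (10.1%), against 7.14% of all, and all below for 4 (5.06%), against 13.5%. Their median was 0.07. These are counts over a chosen list, with no test of the list.

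The genes listed as responsive to Smad signalling had the highest median of the pathway lists, 0.37 over 14 genes. The list gives no direction of response for its genes, so its median is not a measure of Smad signalling. Of the 14, 10 were above 0, against 10491 of all 26887 genes and features tested. The median was 0.11 without WT replicate 1, 0.20 without WT replicate 3 and 0.24 without KO replicate 3, with 10 above 0 each time. At 0.11 it was below the median of the regulators without the same array (0.13). In slide row 2 alone, with 1 array a group, it was 0.10 with 8 above 0, against 0.20 for the regulators. Ccn2, a matricellular protein induced by TGF-beta, read 1.91, 1.89 and 2.13 on the KO arrays, against 1.01, 1.44 and 1.14 on the WT arrays. The groups did not overlap, with a log2 fold change of 0.78 ± 0.16 (adjusted p = 0.226 by limma). Cdkn1a, a cell cycle inhibitor, averaged -0.57 ± 0.11 in KO and -1.17 ± 0.46 in WT (SD, n = 3 each), a log2 fold change of 0.60 ± 0.23 (adjusted p = 0.371 by limma). It was 0.36 without WT replicate 1 and 0.36 with normexp, and its other probe gave 0.30 ± 0.22. Id3, an inhibitor of basic helix-loop-helix factors named after its values were seen, had 0.51 ± 0.21 with groups that overlapped. In the same list Gnrhr, the receptor for gonadotropin-releasing hormone, read -0.28 ± 0.18 (adjusted p = 0.526 by limma), with -0.11 without KO replicate 1 and -0.43 without KO replicate 2. The lowest of the list were Foxl2 (-0.54 ± 0.32) and Bhlhe40 (-0.33 ± 0.29), both with groups that overlapped and both named after their values were seen. Ccn2 is also made by stromal cells. The mean of the pericyte and fibroblast markers was lower on every KO array, with Rgs5 going the other way, as given above. Their part in the Ccn2 values was not tested.

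Among 14 regulators of the signal, 10 were above 0, with a median of 0.13. Pmepa1, a membrane protein that sequesters Smads and is itself induced by them, averaged 2.38 ± 0.10 in KO and 2.04 ± 0.14 in WT (SD, n = 3 each). The log2 fold change was 0.34 ± 0.13 (adjusted p = 0.361 by limma), and its other probe gave 0.36 ± 0.12. Smurf1, a ubiquitin ligase for Smads and receptors, read -0.42, -0.46 and -0.43 on the KO arrays, against -0.66, -0.69 and -0.67 on the WT arrays. These are narrow groups that did not overlap, with a log2 fold change of 0.24 ± 0.11 (adjusted p = 0.402 by limma). Its relative Smurf2 and the corepressor Ski also had KO values all above WT values (0.23 ± 0.12 and 0.20 ± 0.13), and Foxh1, a Smad partner, had them all below (-0.33 ± 0.17); these 3 were named after their values were seen. Ski was 0.01 with normexp and 0.12 without WT replicate 2, and Foxh1 was -0.16 without KO replicate 3 and -0.16 in values deposited by the authors.

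Of the 7 other Smads, Smad7, an inhibitory Smad, had KO values all below WT values, averaging -1.46 ± 0.05 in KO and -1.25 ± 0.11 in WT (SD, n = 3 each). The log2 fold change was -0.21 ± 0.12 (adjusted p = 0.481 by limma). Smad9, which transmits bone morphogenetic protein signals, had 0.43 ± 0.19 (adjusted p = 0.398 by limma) with groups that overlapped. It was 0.0053 with normexp and 0.28 without WT replicate 3. Smad7 was -0.05 with median centring. The list's median was -0.05.

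Among 13 other binding proteins the median was 0.01, with 7 above 0. Grem1, an antagonist of bone morphogenetic proteins, read -2.83, -2.97 and -2.30 on the KO arrays, against -4.56, -3.25 and -4.29 on the WT arrays. The groups did not overlap, and the log2 fold change of 1.33 ± 0.36 (adjusted p = 0.294 by limma) became 0.26 with normexp and 0.28 in slide row 2 alone, which held 1 array a group. Ltbp3, which holds latent TGF-beta in the matrix, had 0.41 ± 0.12 (adjusted p = 0.315 by limma), and its other probe 0.34 ± 0.13. Dcn, a matrix proteoglycan that binds TGF-beta, was lower, at -0.52 ± 0.17 (adjusted p = 0.339 by limma). It was named after its values were seen and is also among the stromal markers.

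Of 20 other ligands, 14 were tested, with a median of 0.04. Gdf11, which like activin signals through Smad2 and Smad3, read -4.65, -4.44 and -4.22 on the KO arrays, against -4.14, -3.85 and -4.15 on the WT arrays. All KO values lay lower, with a log2 fold change of -0.39 ± 0.16 (adjusted p = 0.383 by limma), or -0.05 with quantile normalization. Bmp2, a bone morphogenetic protein, had 0.26 ± 0.14, with 0.03 with normexp and 0.16 without WT replicate 2. The 13 other receptors had a median of -0.03, with no unadjusted p under 0.05, and their smallest p values belonged to Bmpr1b (-0.31 ± 0.16) and Tgfbr2 (0.37 ± 0.21, and -0.23 ± 0.40 by its other probe). Tgfbr2 was 0.20 without WT replicate 3, 0.56 without WT replicate 2 and -0.24 in slide row 2 alone, and Bmpr1b was -0.15 with normexp. Of the 4 convertases that can cleave the ligand precursors, Pcsk7 had 0.24 ± 0.14 (0.11 with normexp) and Pcsk5 -0.37 ± 0.33. Pcsk5 was -0.77 without WT replicate 1 and -0.15 without WT replicate 2.

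**Figure D5:**
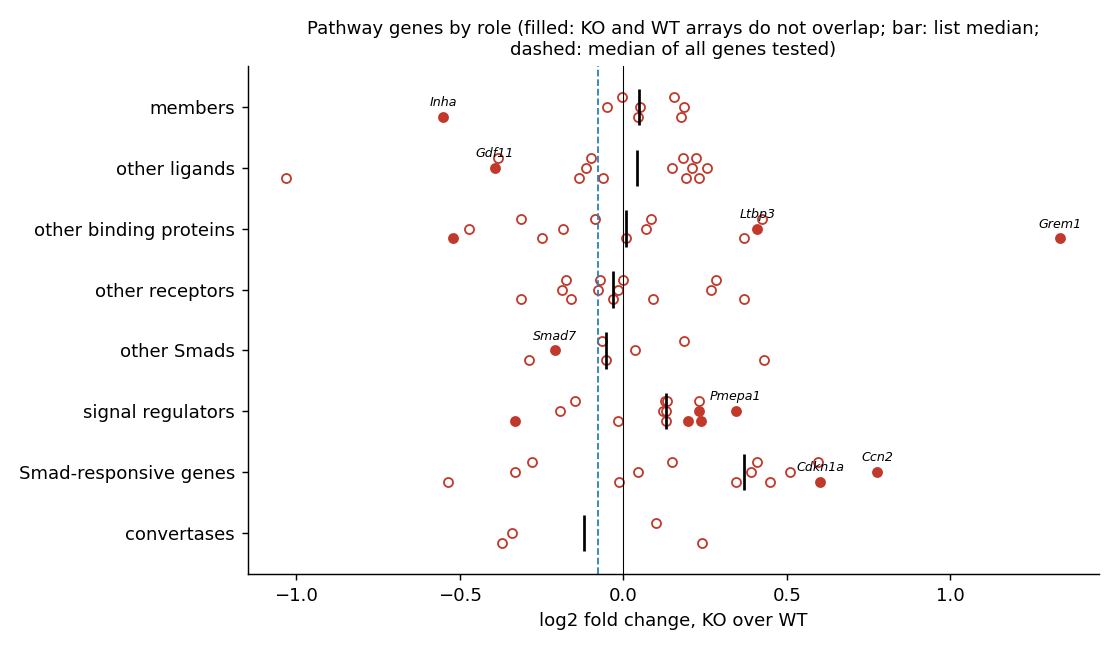
Log2 fold changes, KO over WT, of the members and the other pathway genes tested, 1 point a gene by role, filled where KO and WT arrays do not overlap, with a bar at each list's median and a dashed line at the median of all genes (-0.08). Ccn2 (0.78) and Grem1 (1.33) lie farthest above 0 among filled points, and Inha (-0.55) farthest below.

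The genes whose values over the 6 arrays lay closest to a subunit gene were found by the root-mean-square difference of mean-centred log2 values among 16457 others with a symbol. For Inha they were 2310039H08Rik (0.05), Fdps, a cholesterol synthesis enzyme (0.06), and Calr, a chaperone of the endoplasmic reticulum (0.07), against a median difference of 0.40. For Inhba they were Mrpl15, Dda1 and Tufm (0.02 each, median 0.24), and for Inhbb they were Sbf1 (0.03), Lysmd2 and Mrpl15 (0.05 each, median 0.26). Both beta subunit genes had Mrpl15, a mitochondrial ribosomal protein gene, among their closest 3. The closest of 16457 genes over 6 arrays lie near by selection. The median difference is no baseline for them, and no test was made. Fst did not pass the filter and was not compared.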

How the data were processed

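Cy3-labelled pituitary RNA of 3 KO and 3 WT mice was hybridised, per the labels' protocols. Spot intensity (gProcessedSignal) was taken from the deposited files, as Agilent Feature Extraction 11.0.1.1 wrote it after background correction, per the file headers, with no scaling across arrays. Deposited flag columns of 0 or 1 give a spot's detection, saturation and outlier status. The authors' table gives log2 values for 29154 spots. Its columns followed the log2 median brightness of their arrays (correlation 0.997 or above) and had near-equal medians (8.25 to 8.26). Per the submitters' processing notes limma was used, and its version, the scaling and the filter remain unknown here.

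Outlier and control spots were dropped. The log2(gProcessedSignal) of a probe's spots was averaged, and the 75th percentile of the array's non-control spots was subtracted. A probe had to lie well above background on 3 or more arrays (36739 of 55681 did), and each gene was represented by its brightest probe. RefSeq tables (GRCm38.p6) gave symbols to 27656 probes, hence to 16461 of 26887 features tested, and promoter sequences for 7 of the 10 members.

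limma 3.58.1 in R 4.3.3, with the data.table package (1.17.8) for reading, compared KO with WT (lmFit, eBayes, Benjamini-Hochberg over all features, calls under 0.05). The scripts were tested on simulated data. Replicates are separate animals, as the labels say. The members and lists were chosen with earlier results of these data known. Genes named by rule were the members, Kdm4a, Fshb, Lhb, Cga, Gnrhr, the 2 smallest p of each other list where none was called, and the 3 genes closest to Inha, Inhba and Inhbb. Id3, Dcn, Smurf2, Ski, Foxh1, Foxl2 and Bhlhe40 were named after their values were seen. So were the markers Rax, Oxt, Avp, Rgs5 and Col1a1. Alternatives changed the background correction (normexp with offset 50 on median brightness), the scaling (quantile, median, the authors' table), the dim-probe filter, the choice of probe, the variance model, array weights, blocks (replicate number, slide row), the rows and arrays included, and the threshold. Normexp on dimmer probes was chosen after seeing the data. Deviations of same-numbered KO and WT arrays correlated at 0.15, -0.18 and -0.08, and those of differently numbered arrays at -0.14 to 0.21. Values this alike cannot tell whether the numbers pair the samples.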

Additional observations from a re-analysis of the deposited data

How the results depend on the processing

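The count of members called was 0 under each alternative, and 1 at an unadjusted p under 0.05. Over all 26887 features the count of 0 became 24 with normexp, 27 with a variance trend and robust fit, and 16 with median centring. It was 27 of 20832 features in the authors' value table and 11 of 24308 with the filter on all 6 arrays. Leaving out an array gave 0 to 1. In the main fit the count was 15 at an adjusted p under 0.1 and 3445 at an unadjusted p under 0.05. Whether the numbers in the titles pair KO with WT samples is not known here. With these numbers as a replicate block, 0 genes were called, 2864 had an unadjusted p under 0.05, and Inha read -0.55 ± 0.18 (adjusted p = 0.452 by limma). At an unadjusted p under 0.05, 1046 features were higher and 2399 lower in KO, against 2692 and 890 with median centring, 1819 and 1366 with quantile normalization, and 1585 and 1395 in the authors' table.

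Signs that turned belonged to values that were not called. With normexp Inhba read -0.077, Acvr1b -0.030, Acvr2b 0.112, Smad3 0.00038 and the dimmer Acvr2a probe -0.107. With median centring Acvr2b read 0.157 and Smad3 0.112. With quantile normalization Acvr2b read 0.0033, Cga 0.016 and Bmpr1b 0.068. In the authors' table Acvr2b read 0.078 and Cga 0.041. With array weights Acvr2b read 0.0072 and Lhb -0.0065, and slide row 1 alone gave Lhb -0.169. Leaving out 1 array gave ranges of -0.071 to 0.114 for Inhba, -0.093 to 0.139 for Inhbb, -0.045 to 0.031 for Acvr2b, -0.098 to 0.029 for Smad3, -0.322 to 1.42 for Fshb and -0.171 to 0.161 for Lhb. Those of Tgfbr3 ran from 0.093 to 0.306, of Acvr2a from 0.033 to 0.280 and of Acvr1b from 0.097 to 0.290. Slide row 2 alone, with 1 array a group and no test, also turned signs. It gave -0.108 for Inhba, -0.180 for Inhbb, -0.0068 for Acvr1b, -0.041 for Acvr2a, 0.0053 for Acvr2b, -0.075 for Tgfbr3, 0.051 for Smad3, -2.017 for Fshb, 0.242 for Cga, -0.0022 for Smad9, -0.239 for Tgfbr2 and -0.029 for Pcsk7. The cause was not tested. Signal over background limits Fst, Bambi and the dimmer Smad3 probe most. The Grem1 and Bmpr1b probes were also dim, each well above background on 5 arrays. Normexp moved the log2 fold change of Grem1 from 1.33 to 0.26 and that of Smad9 from 0.43 to 0.0053. That of Ccn2 went from 0.78 to 0.76. Having 3 arrays a group limits every value.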
